A study of Solanum lycopersicum var. cerasiforme with 6 samples.

Results

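The comparison described here is that of pericarp from tomato fruit injected with NDGA (nordihydroguaiaretic acid) with pericarp from fruit injected with distilled water (CK), over all loci of the deposited expression table. It covers the 18206 of 31571 entries that carry a single gene identifier, average 1 FPKM or more across the 3 groups and lie in a locus longer than 300 bp, and these entries stand for 15504 genes. FPKM counts sequenced fragments after scaling to transcript length and to the mapped fragments of the library. Of the entries left out, 5894 had no gene identifier, 1121 merged several genes, 6191 were under the FPKM minimum and 159 lay in a shorter locus. Mature green cherry tomato fruits received 25 μL of NDGA at 1 mM, of ABA (abscisic acid) at 10 mM or of distilled water, and were sampled at day 9. Each group had 2 libraries, each from the pooled pericarp RNA of 10 fruits, and the table gives 1 FPKM per entry and group, the authors' mean of both libraries. No value per library was analysed here, so no difference below could be set against the spread between replicates and no test was made. Positions are loci of the tomato genome build SL2.40, and gene functions are the descriptions in the table.

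Tomato is a climacteric fruit, in which ripening comes with a burst of ethylene, breakdown of chlorophyll, synthesis of lycopene from the carotenoid pathway and loosening of the pectin-rich wall. ABA is made by cleavage of carotenoids and is known to promote ripening of tomato. NDGA inhibits the cleavage step and is used to lower endogenous ABA, and the comparison with CK asks which transcripts differ in fruit treated in this way.

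Between NDGA and CK fruit, 1375 members were at least 2-fold higher in NDGA fruit and 572 at least 2-fold lower. These were 7.55% and 3.14% of all members, 10.7% together, and 16259 members lay within 2-fold. Counts here and below include members listed at 0 in one group. The counts of each list and family below are to be read beside these shares of all members. Abundant transcripts that were lower in NDGA fruit included phytoene synthase, lipoxygenase 1 and methionine sulfoxide reductase. A polygalacturonase-like pectin lyase family protein was lower too, but it is listed at 0 in ABA fruit, which may be a failed estimate. Abundant transcripts that were higher included oleosins, seed storage albumins, cupins and lipid-transfer proteins. The ratio, log2((NDGA + 0.1)/(CK + 0.1)), had a median of 0.03 over all members, with quartiles of −0.20 and 0.32. At least 4-fold differences were found in 396 members that were higher and 163 that were lower, and at least 8-fold differences in 201 higher and 91 lower members. The numbers depended on the selection of members: where members averaged 10 FPKM or more they were 403 higher and 214 lower, and over genes listed in 1 entry of the table they were 788 higher and 264 lower.

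**Figure D1:**
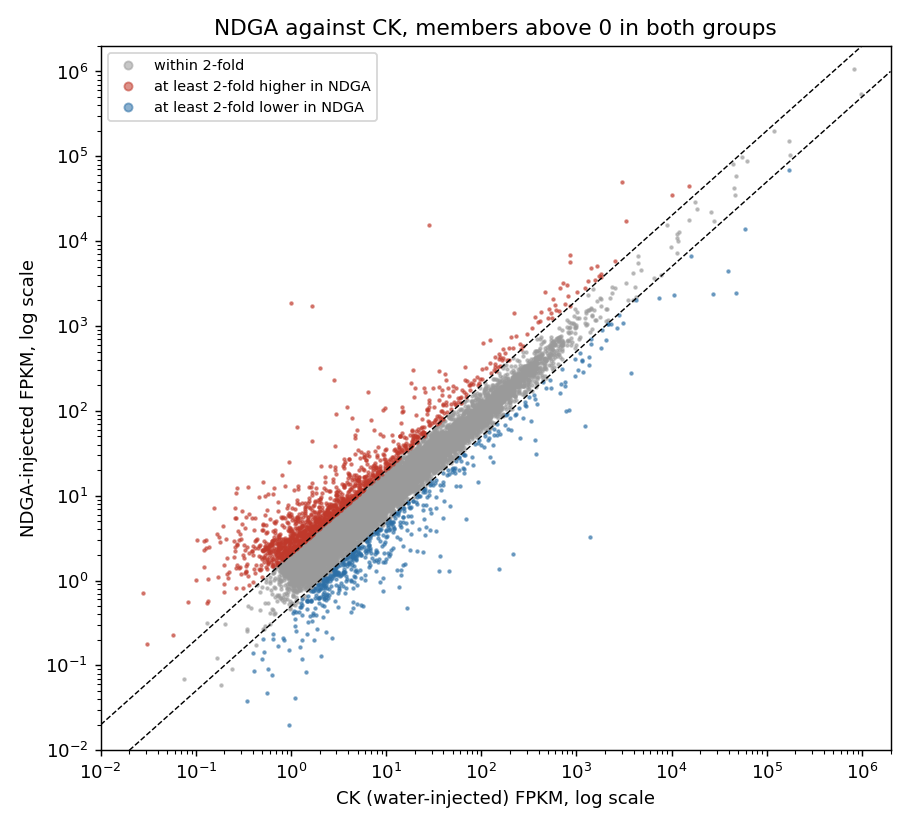
FPKM in NDGA fruit (vertical, log scale) against FPKM in CK fruit (horizontal, log scale), one point per member above 0 in both groups, with dashed lines at 2-fold. Most points lie between the lines, and the points above them outnumber those below, as do the 1375 higher over the 572 lower members.

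The share past 2-fold differed between levels. With members ordered by the mean of their NDGA and CK values, 276 of 1728 were higher and 97 (5.61%) lower in NDGA fruit between 1 and 2 FPKM. With a pseudocount of 1 in place of 0.1 the shares in this range were 7.23% higher and 1.74% lower. Between 30 and 100 FPKM the shares were 3.55% higher and 1.35% lower. At 1000 FPKM and above they were 27.9% and 18.4% of 136 members. Locus length went with the shares too. In loci of 300 to 500 bp, 30.4% of 257 members were higher and 8.56% lower, against 3.38% and 1.92% of 5535 members in loci of 5000 to 10000 bp. At a level between 10 and 100 FPKM the same order was seen, with 25.0% higher in the shortest and 1.20% in the loci of 5000 to 10000 bp. On the 12 numbered chromosomes between 6.21% and 8.98% of members were higher and between 2.23% and 4.21% lower. Of the 123 members on unplaced sequence (chromosome 0), 16.3% were higher and 4.07% lower.

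**Figure D2:**
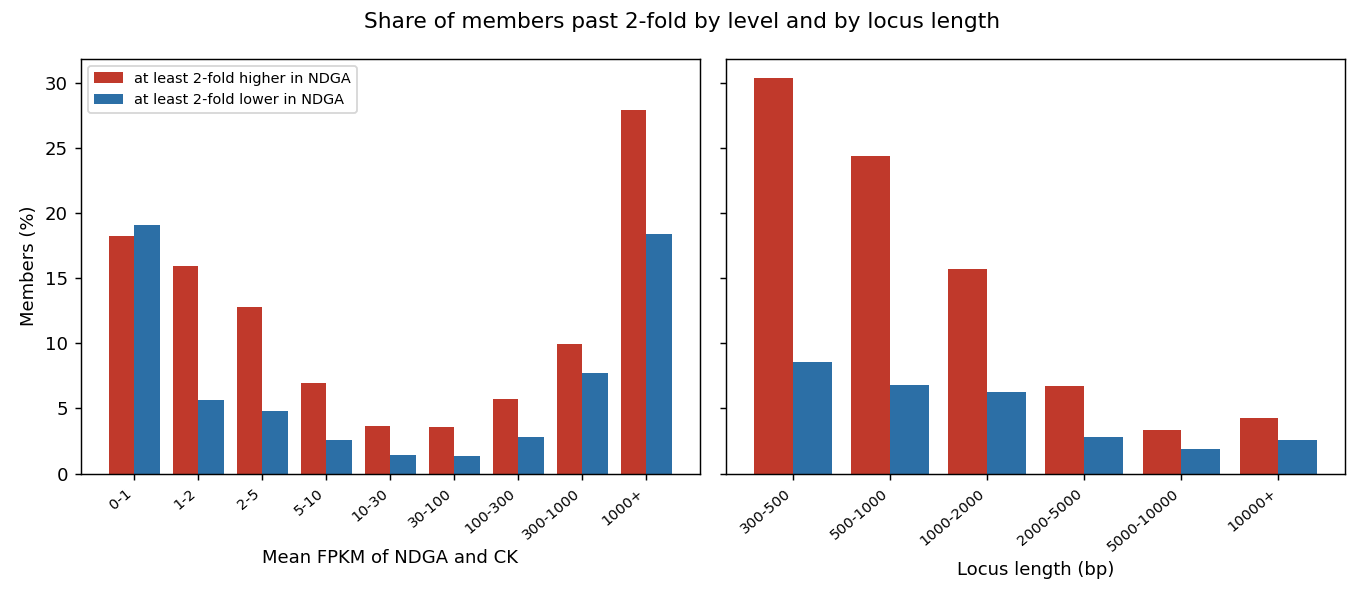
Share of members at least 2-fold higher (red) or lower (blue) in NDGA fruit, by the mean FPKM of NDGA and CK (left) and by locus length in bp (right). The share higher is largest, at 27.9% and 30.4%, in the bin of highest level and in the bin of shortest loci.

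Before the gene groups, ripening factors and seed markers were read beside the label pericarp. Ripening factors were well expressed in both groups. LeMADS-RIN (Solyc05g012020.2, read from the transcription factor table) had 397 FPKM in NDGA and 672 FPKM in CK fruit. LeNOR (Solyc10g006880.2) had 592 FPKM in NDGA and 881 FPKM in CK fruit. The larger entry of CNR (Solyc02g077920.2) had 324 FPKM in NDGA and 411 FPKM in CK fruit. TAGL1, LeFUL1 and LeFUL2 were lower in NDGA fruit too. In contrast, LeHB-1 (Solyc02g086930.2) had 103 FPKM in NDGA and 89.9 FPKM in CK fruit. MADS1 (Solyc03g114840.2) had 80.7 FPKM in NDGA and 78.2 FPKM in CK fruit. Transcripts typical of seeds were present as well, although by the study's methods seeds were removed before the pericarp was frozen. The list of seed markers held oleosins and caleosins of oil bodies, 2S-type storage albumins, cruciferin and seed maturation proteins. Its search was corrected after values had been seen, which split lipid-transfer genes from it. Of its 24 members, 24 had a higher FPKM in NDGA than in CK fruit. At least 2-fold higher were 18, the entry listed at 0 in CK fruit included. The FPKM of the 24 members summed to 12976 in NDGA, 3254 in ABA and 5742 in CK fruit, a 2.26-fold higher sum in NDGA than in CK fruit. No marker was listed at 0 in NDGA fruit, and 1 entry was at 0 in CK fruit (seed storage albumin 3, Solyc07g064220.1, at 4.99 FPKM in NDGA fruit). In RNA of a whole tissue, fewer cells of a type and less RNA per cell cannot be told apart. The part of these transcripts in the other results was not tested, and their values are given here so that the groups below can be read beside them.

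Storage proteins led the seed markers by level. Seed storage albumin 5 (Solyc08g080490.2), a sulfur-rich reserve protein, had 5783 FPKM in NDGA and 2557 FPKM in CK fruit (log2 ratio 1.18). Its neighbour seed storage albumin 1 (Solyc08g080480.2) had 1487 FPKM in NDGA and 655 FPKM in CK fruit. Cruciferin 3 (Solyc03g005580.2), a globulin-type reserve protein, was at 698 FPKM in NDGA and 417 FPKM in CK fruit, less than 2-fold apart. In ABA fruit these genes had 961, 267 and 25.6 FPKM. Oleosins coat oil bodies, and some differed by more. Oleosin 1 (Solyc08g078160.2) had 310 FPKM in NDGA and 103 FPKM in CK fruit, and an Oleosin family protein (Solyc12g010920.1) had 956 FPKM in NDGA and 340 FPKM in CK fruit. The smallest difference among once-listed genes that reached 10 FPKM was that of oleosin3 (Solyc06g060840.1), at 650 FPKM in NDGA and 446 FPKM in CK fruit. Cupins, the fold of globulin storage proteins and of several enzymes, were not part of the list. They had 20 members, of which 9 were at least 2-fold higher and 1 lower. Their log2 ratios were above 0 in 14 members and below 0 in 6. The most abundant were a cupin family protein (Solyc09g082340.2), at 4061 FPKM in NDGA and 1828 FPKM in CK fruit, and an RmlC-like cupin (Solyc09g025210.2), at 3475 FPKM in NDGA and 1570 FPKM in CK fruit. The part of the seed markers in this was not tested.

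Late embryogenesis abundant (LEA) proteins and dehydrins, which protect cells and membranes in drying tissue, stood higher in NDGA fruit as a group. Of the 24 members found by the search of descriptions and KEGG terms, 15 were at least 2-fold higher and 0 lower. Their median log2 ratio was 1.15, against 0.03 over all members. Genes of this kind that are described otherwise are not counted. The most abundant, Late Embryogenesis Abundant 4-5 (Solyc10g078770.1), had 1469 FPKM in NDGA and 422 FPKM in CK fruit in its larger entry, and 26.6 FPKM in NDGA and 6.11 FPKM in CK fruit in its smaller one. Dehydrin LEA (Solyc01g109920.2) had 247 FPKM in NDGA and 90.8 FPKM in CK fruit, and dehydrin xero 1 (Solyc02g084840.2) 239 FPKM in NDGA and 97.9 FPKM in CK fruit. The exceptions with lower values were an LEA family protein (Solyc01g079590.2) at 138 FPKM in NDGA and 186 FPKM in CK fruit, and a group 2 protein (Solyc08g015690.2) at 204 FPKM in NDGA and 211 FPKM in CK fruit. LEA proteins are abundant in maturing seeds, and the seed markers above moved with them in NDGA fruit. Between ABA and CK fruit the lists differed. The LEA list had a median log2 ratio of ABA to CK of 0.50, with 7 members at least 2-fold higher and 2 lower. The seed markers had a median of −0.33, with 2 higher and 7 lower. The part of the seed markers in the LEA result was not tested. The other genes named for ABA or dehydration response were less shifted. Of 63 members, 8 were higher and 0 lower, with a median of 0.09, and HVA22 homologue E (Solyc06g072680.2) had the largest ratio among once-listed genes that reached 10 FPKM, at 120 FPKM in NDGA and 48.5 FPKM in CK fruit.

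Lipid-transfer proteins, small secreted proteins that bind lipids, share a fold with 2S albumins, and most carry a description that names both. Of 26 members, 15 were at least 2-fold higher and 0 lower, with a median log2 ratio of 1.17. The seed markers moved with them too, and their part was not tested. Solyc06g005770.1 on chromosome 6 (808169 to 808529) had the highest ratio of any gene in the selection of extremes, with 64.2 FPKM in NDGA and 1.16 FPKM in CK fruit. Lipid transfer protein 12 (Solyc10g075050.1; chromosome 10, 58072945 to 58073747) followed in this list at 47.8 FPKM in NDGA and 4.74 FPKM in CK fruit, and Solyc01g090360.2 was the most abundant gene listed once at 5148 FPKM in NDGA and 1665 FPKM in CK fruit. One entry, of Solyc06g073660.2, is listed at 11530 FPKM in NDGA fruit and at 0 in CK fruit. With loci longer than 1000 bp the median of the list was 0.43, and where members averaged 10 FPKM or more it was 1.47.

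Xyloglucan endotransglucosylases, which cut and rejoin wall xyloglucan, had 6 of 22 members at least 2-fold higher and 0 lower, with a median of 0.65. Xyloglucan endotransglucosylase/hydrolase 25 (Solyc07g009380.2) had 550 FPKM in NDGA, 3.55 FPKM in ABA and 194 FPKM in CK fruit, while the most abundant member (Solyc01g081060.2, family number 30) had 1099 FPKM in NDGA and 1230 FPKM in CK fruit. Expansins had 1 of 9 members past 2-fold, and their median of 0.94 turned to −0.16 where members averaged 10 FPKM or more. Expansin A4 (Solyc06g051800.2), the most abundant, was at 652 FPKM in NDGA and 730 FPKM in CK fruit. Arabinogalactan protein 20 (Solyc12g007050.1; chromosome 12, 1490151 to 1490726), a wall glycoprotein, had the second highest ratio of the selection, at 107 FPKM in NDGA, 173 FPKM in ABA and 9.80 FPKM in CK fruit.

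Pectin-modifying genes did not move as one, with 9 of 64 members at least 2-fold higher and 8 lower. A pectin lyase-like gene of the polygalacturonase type (Solyc10g080210.1; chromosome 10, 60883596 to 60890426), whose product cuts pectin chains, had 2309 FPKM in NDGA and 10575 FPKM in CK fruit, a 4.58-fold lower value. This gene is listed at 0 in ABA fruit. Another pectin lyase-like gene (Solyc03g111690.2) had 1053 FPKM in NDGA and 2131 FPKM in CK fruit. The median of the list, 0.17, turned to −0.13 where members averaged 10 FPKM or more. Aquaporins, the membrane channels for water, had 7 of 28 members higher and 0 lower, with a median of 0.48. The beta-tonoplast intrinsic proteins, which are seed-type aquaporins in Arabidopsis, were among them, at 394 FPKM in NDGA and 164 FPKM in CK fruit (Solyc03g019820.2) and at 143 FPKM in NDGA and 59.5 FPKM in CK fruit (Solyc06g072130.2). The seed markers moved with these as well, and their part was not tested. The most abundant aquaporin (Solyc08g081190.2) had 1700 FPKM in NDGA and 1826 FPKM in CK fruit.

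Carotenoid genes had 2 of 25 members at least 2-fold higher and 3 lower, with a median log2 ratio of −0.17. The 3 lower entries belonged to phytoene synthase and to the isomerase of zeta-carotene. The sign of the median depended on the list. The 19 members that KEGG assigns to carotenoid biosynthesis had 2 higher and 1 lower, with a median of 0.08. Phytoene synthase (Solyc03g031860.2), the entry enzyme of the pathway, had 1339 FPKM in NDGA, 5451 FPKM in ABA and 2795 FPKM in CK fruit. The larger entry of 15-cis-zeta-carotene isomerase (Solyc12g098710.1) had 345 FPKM in NDGA and 1371 FPKM in CK fruit. Phytoene desaturase (Solyc05g041200.2), which acts between them, had 206 FPKM in NDGA and 208 FPKM in CK fruit. Zeaxanthin epoxidase (Solyc02g090890.2), on the way from zeaxanthin to the ABA precursors, had 43.0 FPKM in NDGA and 27.8 FPKM in CK fruit. The nine-cis-epoxycarotenoid dioxygenase annotated as number 3 (Solyc07g056570.1), of the enzyme type that NDGA inhibits, was at 301 FPKM in NDGA and 284 FPKM in CK fruit.

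Phenylpropanoid and flavonoid genes, which lead to phenolic compounds and pigments, had 4 of 36 members at least 2-fold higher and 7 lower, and a median of −0.10. Where members averaged 10 FPKM or more, the median was −0.73. Chalcone synthase family Solyc05g053550.2, which makes the flavonoid skeleton, had 61.0 FPKM in NDGA, 676 FPKM in ABA and 189 FPKM in CK fruit. The larger entry of the gene annotated as flavonol synthase 1 (Solyc11g013110.1) had 391 FPKM in NDGA and 1141 FPKM in CK fruit, and flavanone 3-hydroxylase (Solyc02g083860.2) had 89.6 FPKM in NDGA and 184 FPKM in CK fruit. Glutathione transferases, which conjugate glutathione to small molecules, had 0 of 39 members higher and 5 lower, with a median of −0.17. Of 8 members annotated as glutathione S-transferase TAU 8, 4 were lower and 1 is listed at 0 in NDGA fruit. These are low values, with a median level of 4.42 FPKM in NDGA and 6.86 FPKM in CK fruit. Glutathione S-transferase TAU 25 (Solyc07g056420.2) had 429 FPKM in NDGA, 3932 FPKM in ABA and 1342 FPKM in CK fruit. UDP-glycosyltransferases, which attach sugars to such molecules, had 5 of 87 members higher and 9 lower.

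**Figure D3:**
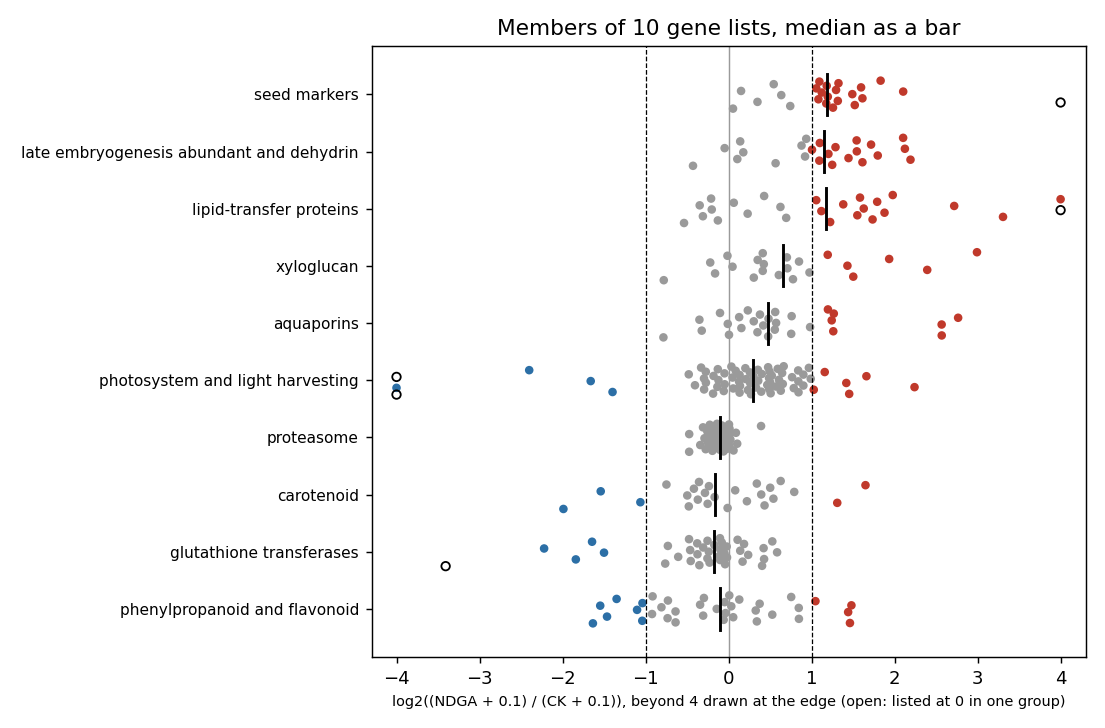
Ratio of NDGA to CK for every member of 10 gene lists (points, log2 scale), with the median as a bar and 2-fold as dashed lines, red where higher and blue where lower in NDGA fruit. The seed markers all lie above 0, the proteasome members cluster near −0.11, and the phenylpropanoid list spreads to both sides.

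Photosystem and light-harvesting genes had 6 of 71 members (8.45%) at least 2-fold higher and 6 (8.45%) lower, with a median of 0.30. Over all members 7.55% were higher and 3.14% lower. Chlorophyll A/B binding protein 1 (Solyc02g071030.1), an antenna protein, had 21.7 FPKM in NDGA, 0.262 FPKM in ABA and 6.80 FPKM in CK fruit, and photosystem II subunit X (Solyc05g025600.1) had 52.4 FPKM in NDGA and 19.1 FPKM in CK fruit. Entries annotated as photosystem II reaction center proteins, whose genes lie in the chloroplast genome of plants, were found on both sides. Protein C (Solyc10g061830.1) had 24.9 FPKM in NDGA and 132 FPKM in CK fruit and protein A (Solyc05g016120.1) had 7.92 FPKM in NDGA and 21.0 FPKM in CK fruit, while the larger entry of another protein A (Solyc01g048590.1) had 7.55 FPKM in NDGA and 4.34 FPKM in CK fruit. The most abundant member, photosystem II subunit R (Solyc07g066310.2), had 614 FPKM in NDGA and 696 FPKM in CK fruit. Carbon fixation had 3 of 13 members (23.1%) higher and 0 lower, with a median of 0.08. None of its members that reached 10 FPKM was past 2-fold. Their largest ratio was that of a ribulose bisphosphate carboxylase small chain gene (Solyc03g034220.2), at 136 FPKM in NDGA and 85.4 FPKM in CK fruit. Another small chain gene (Solyc02g085950.2) had 11.2 FPKM in NDGA and 18.9 FPKM in CK fruit. Porphyrin and chlorophyll metabolism had 3 of 32 members (9.38%) higher and 0 lower. Chlorophyllase 2 (Solyc12g005300.1), which removes the phytol tail of chlorophyll, had 22.2 FPKM in NDGA and 7.20 FPKM in CK fruit.

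Of 7 entries in the list of ethylene synthesis 0 were past 2-fold, but the list leaves out a synthase counted with methionine metabolism and an entry that merges several genes, both at least 2-fold lower. Of 35 entries for ethylene perception and response 2 were higher and 1 lower. ACC synthase makes the precursor of ethylene, and 1-amino-cyclopropane-1-carboxylate synthase 2 (Solyc01g095080.2), counted with methionine metabolism, had 114 FPKM in NDGA, 678 FPKM in ABA and 297 FPKM in CK fruit. ACC synthase 1 (Solyc05g050010.2) had 61.3 FPKM in NDGA and 121 FPKM in CK fruit. Ethylene-forming enzymes convert ACC to ethylene. The merged entry of this description, which begins with Solyc07g049530.2, had 593 FPKM in NDGA and 2157 FPKM in CK fruit, while Solyc02g036350.2 had 746 FPKM in NDGA and 661 FPKM in CK fruit and Solyc02g081190.2 had 51.4 FPKM in NDGA and 26.3 FPKM in CK fruit. Ethylene response sensor 1 (Solyc09g075440.2) had 305 FPKM in NDGA and 572 FPKM in CK fruit. Auxin genes had 15 of 93 members higher and 8 lower. A GH3 family gene, whose family conjugates auxin to amino acids (Solyc02g092820.2), had 10.7 FPKM in NDGA and 1.83 FPKM in CK fruit, and an auxin efflux carrier (Solyc10g080880.1) had 9.59 FPKM in NDGA and 33.1 FPKM in CK fruit. The list of gibberellin, cytokinin and brassinosteroid genes had 11 of 33 members higher and 3 lower. A Gibberellin-regulated gene (Solyc02g083880.2) in a locus of 115689 bp had 11.7 FPKM in NDGA and 1.08 FPKM in CK fruit. Gibberellin 2-oxidases, enzymes that inactivate gibberellin, were found on both sides. Gibberellin 2-oxidase 1 (Solyc07g056670.2) had 47.9 FPKM in NDGA and 120 FPKM in CK fruit. An entry of another (Solyc10g007560.1), a gene listed in 2 entries, is listed at 1962 FPKM in NDGA fruit and at 0 in CK fruit.

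Lipoxygenases and their oxylipin products give rise to green-leaf aroma compounds and to jasmonate. Of 23 members, 3 were higher and 2 lower, with a median of 0.21 that turned to −0.34 where members averaged 10 FPKM or more. The most abundant, lipoxygenase 1 (Solyc01g099190.2), had 618 FPKM in NDGA and 1428 FPKM in CK fruit, and another lipoxygenase 1 (Solyc01g099150.2; chromosome 1, 81224469 to 81230219) had 2.32 FPKM in NDGA and 17.7 FPKM in CK fruit. Methyl esterase 1 (Solyc02g065280.2; chromosome 2, 31020919 to 31026815), of a family that frees hormones from their methyl esters, had 3.85 FPKM in NDGA, 235 FPKM in ABA and 33.5 FPKM in CK fruit. The lowest ratio of the selection belonged to plant defensin 1.2C (Solyc07g009230.2; chromosome 7, 4263203 to 4264470), a small antimicrobial peptide, at 1.57 FPKM in NDGA and 15.7 FPKM in CK fruit. With a pseudocount of 1 it was not the lowest, at a log2 ratio of −2.70 against −2.83 for methyl esterase 1. Sulfate transporter 1;3 (Solyc04g072760.2) had 7.59 FPKM in NDGA and 46.7 FPKM in CK fruit, and beta-D-xylosidase 4 (Solyc10g047030.1), a wall hydrolase, had 2.54 FPKM in NDGA and 14.9 FPKM in CK fruit. Pathogenesis-related genes had 6 of 58 members higher and 5 lower, and the most abundant of them, a basic chitinase (Solyc10g017970.1), was at 17785 FPKM in NDGA and 15366 FPKM in CK fruit.

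**Figure D4:**
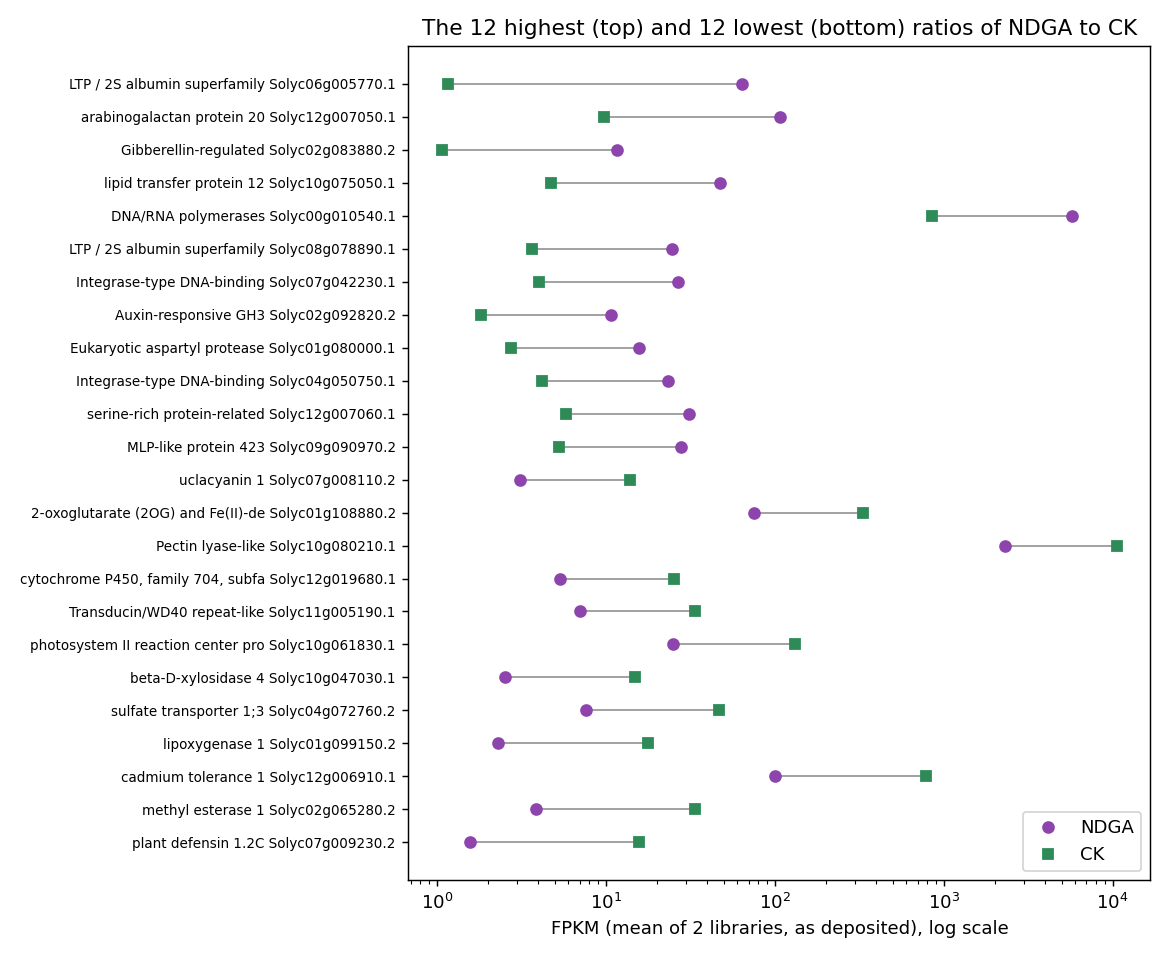
FPKM (log scale) in NDGA (circles) and CK (squares) fruit of the 12 genes with the highest ratio and the 12 with the lowest, among genes listed once with the higher value at 10 FPKM or more and a described function. The lines join the groups, and the lowest ratio is that of plant defensin 1.2C at 1.57 FPKM in NDGA and 15.7 FPKM in CK fruit.

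The proteasome, which degrades tagged proteins, had 0 of 51 members past 2-fold and a median log2 ratio of −0.11, and ribosomal proteins had 10 of 400 higher and 2 lower with a median of −0.03. Proteases lay on the other side, with 17 of 120 members higher and 2 lower and a median of 0.13. An aspartyl protease (Solyc01g080000.1) had 15.8 FPKM in NDGA and 2.76 FPKM in CK fruit, and serine carboxypeptidase-like 27 (Solyc04g015340.2) had 91.2 FPKM in NDGA and 230.3 FPKM in CK fruit. The citrate cycle had 3 of 31 members higher and 0 lower with a median of −0.20. Aconitase 3 (Solyc12g005860.1), which isomerises citrate, had 463 FPKM in NDGA and 659 FPKM in CK fruit. Phosphoenolpyruvate carboxykinase 1 (Solyc04g076880.2), of the route from organic acids to sugars, had 147 FPKM in NDGA and 320 FPKM in CK fruit. Starch and sucrose genes had 5 of 79 members (6.33%) higher and 0 lower, against 7.55% and 3.14% of all members. Among antioxidant enzymes 16 of 150 were higher and 1 lower, including 8 of the 16 members described as Peroxidase superfamily, such as Solyc02g080530.2 at 24.3 FPKM in NDGA and 7.56 FPKM in CK fruit. Over the 56 pathways of the KEGG annotation with at least 15 members, the lowest medians were those of terpenoid backbone biosynthesis (−0.26), degradation of branched-chain amino acids (−0.26), glutathione metabolism (−0.23), the citrate cycle (−0.20) and fatty acid metabolism (−0.18). The highest were photosynthesis (0.36), phenylalanine metabolism (0.33), steroid biosynthesis (0.29) and glycerolipid metabolism (0.21), followed by pyruvate metabolism (0.08).

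**Figure D5:**
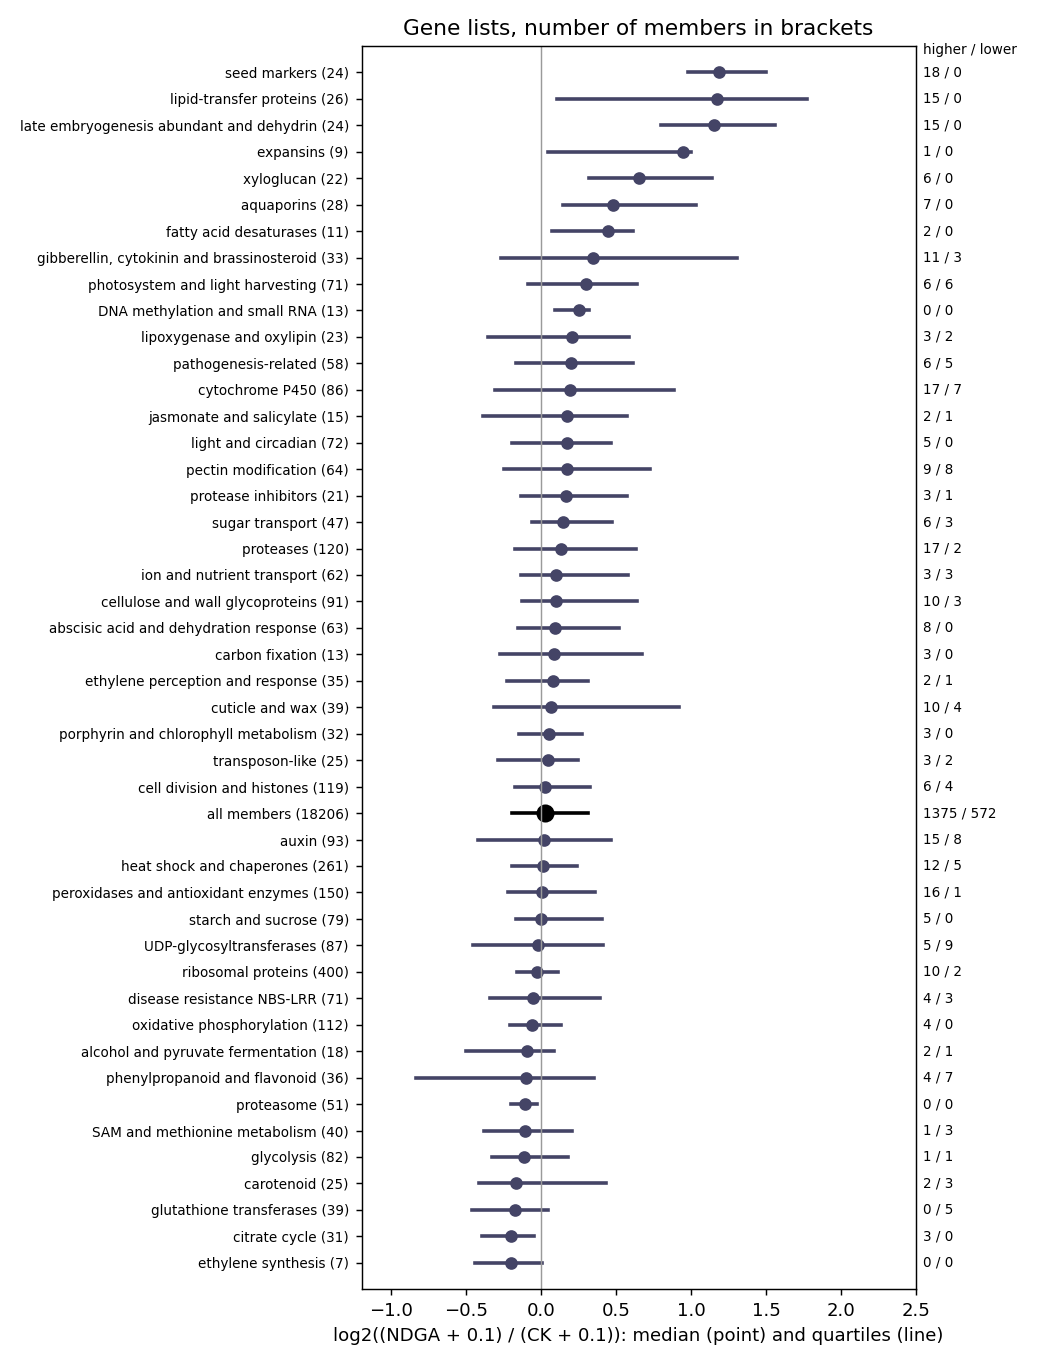
Median log2 ratio of NDGA to CK (point) with quartiles (line) for each gene list with at least 5 members and for all members, with the numbers at least 2-fold higher and lower at the right. Seed markers, lipid-transfer proteins and LEA proteins lie at the top with medians from 1.15 to 1.19, and all members at 0.03.

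Transcription factors from the deposited table had 1030 members, with 102 (9.90%) at least 2-fold higher and 32 (3.11%) lower and a median of 0.09. The shares over all members were 7.55% higher and 3.14% lower. By family, growth-regulating factors (GRF) had 4 of 9 members higher and 0 lower with a median of 0.75. These are low values, with a median level of 2.92 FPKM in NDGA and 1.85 FPKM in CK fruit. NF-YB factors, of the CCAAT-binding complex, had 4 of 14 higher and 0 lower with a median of 0.42. Their median level was 7.06 FPKM in NDGA and 3.63 FPKM in CK fruit. B3 factors, a family that includes regulators of seed maturation, had 7 of 30 higher and 0 lower with a median of 0.24. Their median level was 7.10 FPKM in NDGA and 3.36 FPKM in CK fruit. ERF factors, which bind ethylene-response elements, had 14 of 82 higher and 3 lower, and the once-listed ERF genes that reached 10 FPKM with the highest ratios were Solyc07g042230.1 at 26.8 FPKM in NDGA and 4.04 FPKM in CK fruit and Solyc04g050750.1 at 23.5 FPKM in NDGA and 4.22 FPKM in CK fruit. Myb domain protein 12 (Solyc01g079620.2), annotated after an Arabidopsis regulator of flavonol synthesis, had 13.3 FPKM in NDGA and 30.9 FPKM in CK fruit, and a homeobox-leucine zipper factor (Solyc09g060160.1) had 52.6 FPKM in NDGA and 146 FPKM in CK fruit. MIKC-type MADS factors had 2 of 29 members higher and 3 lower, and BES1 factors had the lowest median of the 35 families with at least 8 members, −0.27, with 0 of 9 past 2-fold.

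Among the 1174 members of genes listed once with a mean of NDGA and CK of at least 100 FPKM, 48 were at least 2-fold higher and 41 lower. This level was chosen after the values had been seen. Of the 48, 11 belonged to the seed marker, LEA or lipid-transfer lists, 5 were cupins and 17 had no description. The 41 lower ones included peptidemethionine sulfoxide reductase 1 (Solyc03g111720.2), which repairs oxidised methionine, at 2149 FPKM in NDGA, 11052 FPKM in ABA and 7288 FPKM in CK fruit. A 2-oxoglutarate-dependent oxygenase (Solyc03g095900.2) had 549 FPKM in NDGA and 1810 FPKM in CK fruit, a glycosyl hydrolase of family 32, the invertase family (Solyc03g083910.2), 1051 FPKM in NDGA and 2335 FPKM in CK fruit, and branched-chain amino acid transaminase 2 (Solyc12g088220.1) 154 FPKM in NDGA and 358 FPKM in CK fruit. Cytochrome P450 94B1 (Solyc09g066150.1) had 401 FPKM in NDGA and 1135 FPKM in CK fruit, within a family of 86 members of which 17 were higher and 7 lower.

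Some members carried values that cannot be read as a fold. In 132 members CK fruit was listed at 0 and NDGA fruit was not, with a median of 11.9 FPKM in NDGA fruit, and in 55 the reverse held, with a median of 7.07 FPKM in CK fruit. The 4 highest FPKM of all members were of this kind, at 2230000, 1590000, 1430000 and 1430000 in NDGA fruit and 0 in ABA and CK fruit, in entries of Solyc05g007350.1, Solyc07g055800.2, Solyc02g084190.1 and Solyc05g014630.1, each a gene listed in more than one entry. In the other direction, an entry annotated as a complex I protein (Solyc12g033020.1) was listed at 0 in NDGA and 988672 FPKM in CK fruit, and senescence-associated gene 21 (Solyc09g075210.2) at 0 in NDGA and 21708 FPKM in CK fruit. A listed 0 may be a failed estimate, and no fold is given. Members over 10000 FPKM numbered 35 in NDGA and 32 in CK fruit, and without the entries past this level in any group the FPKM of the members summed to 842795 in NDGA and 795745 in CK fruit. Genes with several member entries numbered 2515, of which 1003 had entries on both sides of 0 and 23 had one entry at least 2-fold higher and another at least 2-fold lower.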

How the data were processed

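RNA-seq of pericarp was deposited as tables of FPKM. According to the study, the authors aligned reads to tomato SL2.40 (ITAG2.3) with TopHat and computed FPKM with Cufflinks 2.1.1. They averaged both libraries of each group, so the deposited FPKM hold 1 value per entry and group. Recorded here as upstream tools were also TopHat2 2.0.9 and Cuffdiff, the last without a version. Depth per library was not analysed here, and the precision of single values is unknown. The deposited tables of transcription factors and hormone genes also hold the authors' calls of significance and regulation, which were not used. The samples of 3 groups, NDGA, ABA and CK, were taken from the labels.

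Ratios were log2((NDGA + 0.1)/(CK + 0.1)), a scale that understates changes of low genes, and 2-fold was the threshold. There is no test. The 46 gene lists come from searches of descriptions and KEGG terms. Members and lists were chosen with earlier results of these data known, and the searches were corrected for false matches after values had been seen, which split lipid-transfer from seed and cuticle genes and LEA from ABA genes. Named genes are the 12 highest and 12 lowest ratios among described genes listed once, above 0 in both groups and at 10 FPKM or more in one, the 10 highest levels, the highest, lowest and most abundant member of each list, and the 5 highest members listed at 0 in either group. Other genes named, among them further members of the lists, cupins, transcription factors, photosystem genes and abundant genes, were chosen after their values were seen. Alternatives were other pseudocounts, FPKM and length limits, a shift of the median to 0, genes listed once and 3-fold. Added after the data had been seen were counts without the seed marker, LEA and lipid-transfer members and without members at 0. The RefSeq gene table matched 0 identifiers, and no sequence is given. The counting code was run on simulated data with planted 3-fold changes and little spread, which does not bear on the precision of the counts. Python 3.11.15, numpy 2.4.6, pandas 2.3.3 and matplotlib 3.10.9 were used.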

Additional observations from a re-analysis of the deposited data

How the results depend on the processing

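No paired analysis was possible because the files used here hold 1 mean per group, and leaving out single libraries was not run for the same reason. The alternatives kept the excess of higher over lower members. The counts of higher and lower members, 1375 and 572, were 2975 and 1129 with no FPKM filter, 403 and 214 with a mean FPKM of at least 10, 788 and 264 over genes listed once, and 620 and 246 at 3-fold, and 372 were lower with a pseudocount of 1. List medians changed as follows. With no FPKM filter they were 0.48 for carbon fixation, 0.10 for fatty acid desaturases and 0.50 for cytochromes P450. With a mean FPKM of at least 10 they were −0.13 for pectin modification, −0.16 for expansins, 1.47 for lipid-transfer proteins, −0.34 for lipoxygenases, 0.094 for desaturases, −0.73 for phenylpropanoids, −0.088 for protease inhibitors, −0.091 for cytochromes P450 and 0.87 for the KEGG pathway of phenylalanine metabolism. Over genes listed once they were 0.50 for cuticle and 0.10 for desaturases, in loci longer than 1000 bp 0.43 for lipid-transfer proteins, and with a pseudocount of 1 0.66 for expansins. Among named genes, 11 log2 ratios moved by more than 0.25 with a pseudocount of 1. They included Solyc06g005770.1, at 4.92, and plant defensin 1.2C, at −2.70. The shares by level changed with a pseudocount of 1, to 1.24% higher and 2.90% lower under 1 FPKM, 7.23% and 1.74% from 1 to 2 FPKM, and 7.92% and 2.69% from 2 to 5 FPKM. Over genes listed once, 0.877% were lower from 10 to 30 FPKM. The shares higher were 2.16% from 30 to 100 FPKM, 3.11% from 100 to 300 FPKM and 6.28% from 300 to 1000 FPKM. In loci longer than 1000 bp the share higher from 300 to 1000 FPKM was 6.23%. Members listed at 0 in CK fruit only numbered 1436 with no filter, 53 at 10 FPKM, 85 in loci longer than 1000 bp and 58 over genes listed once, and those at 0 in NDGA fruit only 615 with no filter, 19 at 10 FPKM and 25 over genes listed once. Genes in several entries numbered 574 at 10 FPKM, 198 of them with entries on both sides of 0. Without the seed marker, LEA and lipid-transfer members 1327 were higher and 572 lower, and without members at 0 1243 and 517. The causes were not tested.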

Other observations

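Entries outside the single-gene set were read with the same limits on FPKM and length. Of 1042 entries that merge several genes, 38 (3.65%) were at least 2-fold higher in NDGA than in CK fruit and 34 (3.26%) lower, with a median log2 ratio of −0.02. Among the lowest was an entry annotated as methyl esterase 1 that begins with Solyc02g065240.2, at 79.0 FPKM in NDGA and 386 FPKM in CK fruit. A merged entry cannot be assigned to one of its genes. Of 2569 entries with no gene identifier, 573 (22.3%) were higher and 322 (12.5%) lower, with a median of 0.13. Members without a description, 3297 in all, had 404 (12.3%) higher and 165 lower, against 971 (6.51%) higher and 407 (2.73%) lower of the 14909 with one.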
